A study of Mus musculus with 10 samples.

Results

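Tumour necrosis factor (TNF), its receptors and the proteins that pass on or restrain its signal were examined by RNA sequencing of cultured microglia, the macrophages that live in the mouse brain. The genes were chosen by name from the deposited table, with earlier results of these data known. They were Tnf, receptor genes Tnfrsf1a, Tnfrsf1b and Cd40, adaptor genes Traf1 and Traf2, inhibitor genes Tnfaip3 and Tnip1, and TNF-induced genes Tnfaip2 and Icam1. These are 10 of the 28247 genes in the table, and all 10 had enough counts to be tested. Cells labelled wild type had been treated with amyloid-β oligomers, the soluble aggregates of the plaque peptide of Alzheimer's disease, and were then transfected with a small RNA. In 5 libraries this was a mimic of miR-378a-3p, a microRNA that the study links to exercised skeletal muscle, and in 5 libraries it was a negative control mimic. Every library thus carries amyloid-β and a transfection, and no library without either was analysed here. The labels give no age, sex or pooling of animals and do not say whether replicates were separate cultures, so p-values here reflect only library-to-library spread, which may be technical.

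TNF is a cytokine that macrophages and microglia release on activation. It is made as a membrane protein, is cut free by a protease, and binds TNF receptor 1, found on most cells, or TNF receptor 2, found mainly on immune and endothelial cells. The receptors recruit TRAF adaptors and ubiquitin ligases that switch on NF-κB, and A20 and its partners edit the ubiquitin chains and end the signal. Many of the brakes are themselves NF-κB targets, so their transcripts rise after a TNF signal.

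The libraries held 58382073 to 61210195 deposited counts with the miR-378a-3p mimic and 48707985 to 65069571 with the control mimic, and 1 read pair was worth about 4 counts. Of 10 microglia and macrophage markers 9 had a mean of at least 1 FPKM (fragments scaled to gene length and library size) in a group, and the whole list summed to 1132 to 1179 FPKM with the mimic and 1331 to 1422 FPKM with the control. The exception, C1qa, was at 0.0475 ± 0.0664 FPKM with the mimic and 0.496 ± 0.227 with the control (SD, n = 5 each). The sum is dominated by Cd68, at 598 ± 23.1 and 526 ± 22.2 FPKM with mimic and control, the only one of the 10 markers that rose, while the other 9 fell (edgeR). Among these Trem2 fell to 13.1 ± 1.13 FPKM with the mimic, against 29.9 ± 1.57 with the control, Csf1r to 35.2 ± 1.7 against 58.9 ± 1.13, Tyrobp to 126 ± 12.9 against 211 ± 11.6, and Aif1 to 0.681 ± 0.184 against 2.00 ± 0.319. The part of these marker levels in the results below was not tested. Summed markers of neurons, oligodendrocytes and fibroblasts stayed at or under 0.787 FPKM in every library, and the astrocyte gene Gfap was at 0.0117 FPKM with the mimic and 0.0137 FPKM with the control. In the lists of astrocytes, endothelial cells and T cells 1 gene each reached 1 FPKM: Aldoc (80.7 and 99.6 FPKM with mimic and control), Flt1 (4.04 and 10.3 FPKM) and Lck, whose list summed to 1.53 to 1.97 and 1.26 to 1.66 FPKM. Mimic replicate 1 stood apart. It held 128 genes at 1 CPM (counts scaled to library size) or more that did not pass 3 read pairs in any other library, against 0 to 2 such genes in each of the others. Its 6 epithelial markers summed to 63.5 FPKM, against a median of 0.282 FPKM over the mimic libraries and 0.243 to 0.396 FPKM in the control libraries. Fold changes of the 10 genes and of list genes named by rule, call counts of each list and of all genes, and ratios were recomputed without it. The marker genes, list medians, totals over all lists and shares of all genes by fold change were not. Neither were the order of levels, the counts of genes without overlap, the nearest genes and genes chosen after their values were seen. In bulk RNA, fewer cells of a type and less RNA per cell cannot be told apart.

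With the miR-378a-3p mimic, transcripts of the ligand and of the adhesion molecule ICAM-1 rose while those of the main brake A20 and of TNF receptor 2 fell. Wider lists were mixed: of 16 brakes 5 rose and 7 fell, and of 26 tested TNF-induced targets 7 rose and 12 fell. In edgeR's quasi-likelihood test 4 of the 10 genes rose (Tnf, Cd40, Traf2 and Icam1), 4 fell (Tnfrsf1b, Tnfaip2, Tnfaip3 and Tnip1) and 2 did not pass (Tnfrsf1a and Traf1). These 8 of 10 stand beside 63.2% of all 15916 tested genes, 31.7% higher and 31.5% lower, so a change is common in this comparison. It is more common among better expressed genes. Of 11570 genes with a mean of at least 1 FPKM, as all of the 10 but Traf1 had, 4228 were higher and 4210 lower (edgeR). The FPKM of the 2 groups did not overlap in 9 of the 10 genes, against 52.2% of all tested genes. The mimic libraries were above in 5 of them (31.4% of all tested genes) and below in 4 (20.8%). Past 2-fold there was 1 of the 10, Tnfaip3, which fell, beside 13.3% of all tested genes in either direction and 8.46% that fell. The median log2 fold change was 0.17 over the 10 genes and -0.0021 over all tested genes. As the 10 genes were chosen with earlier results known, these counts and shares are a description and not a test.

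**Figure D1:**
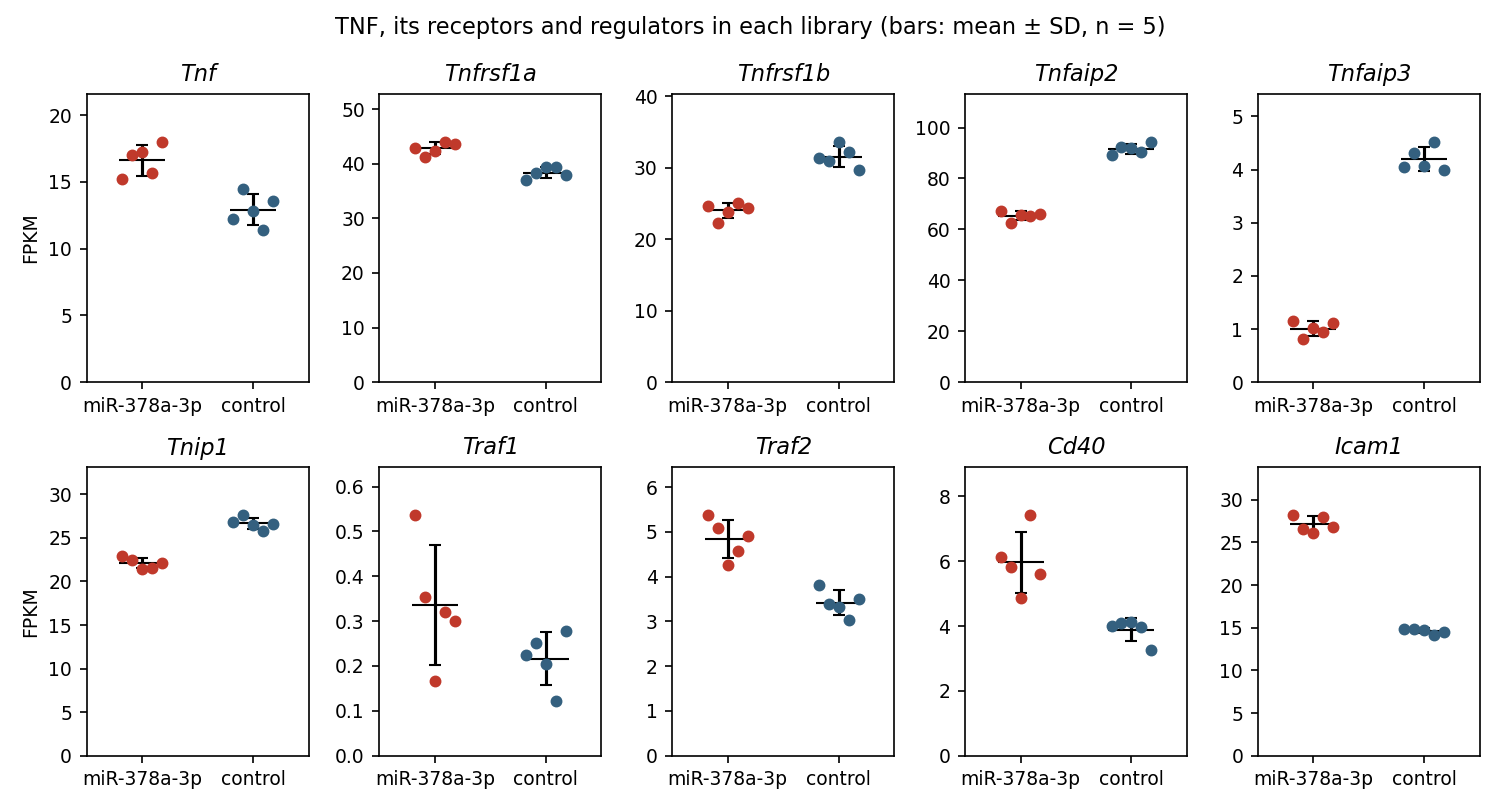
FPKM of each of the 10 genes (vertical axis, from 0) in the 5 miR-378a-3p mimic libraries (red, left) and the 5 control mimic libraries (blue, right), one point per library, with the mean and SD. The groups do not overlap in any gene except Traf1, and Tnfaip3 shows the widest gap relative to its level, 1.01 FPKM with the mimic and 4.19 FPKM with the control.

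Tnf itself (ENSMUSG00000024401, chromosome 17, 35199381 to 35202007, minus strand, build GRCm38) was moderately higher with the mimic. It had 15.3, 17.0, 17.2, 15.6 and 18 FPKM in miR-378a-3p mimic replicates 1 to 5, against 12.2, 14.4, 12.8, 11.4 and 13.6 FPKM in control mimic replicates 1 to 5. Every mimic library lay above every control library. The log2 fold change, mimic over control, was 0.28 ± 0.0704 (SE, edgeR adjusted p = 0.00306), a rise of 21%. It passed in all 19 alternatives, with log2 fold changes of 0.23 to 0.37 and adjusted p up to 0.0143.

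The Tnf message is known for AU-rich repeats in its 3′ untranslated region, where decay factors of the ZFP36 family bind. The nonamer TTATTTATT, read on the transcript strand, occurred 5 times in the longest Tnf transcript of GENCODE M21, all after the stop codon, and 0.187% of 21877 genes with a protein-coding transcript had at least as many. The 30 bases with the most copies, beginning 330 bases before the transcript's end, are shown beside those of Tnfaip3, the only one of the other 9 genes that held the nonamer, in 1 copy. Capitals mark the nonamers, which overlap in Tnf.
Tnf: ttaTTATTTATTATTTATTTATTATTTATT
Tnfaip3: aacgggagccctcattctggtTTATTTATT
At least 1 copy was found in 7.99% of those genes, and a match is a description and not a binding site. Of 16 listed genes of TNF mRNA decay and shedding 15 were tested: 8 rose, 4 fell and 3 did not pass. Among all tested genes 31.7% were higher and 31.5% lower. The median log2 fold change of the list was 0.30. Zfp36l1, a decay factor of the ZFP36 family, fell to 7.33 ± 0.269 FPKM with the mimic, against 23.8 ± 1.05 with the control (log2 fold change -1.79). Its relative Zfp36l2 rose, at 28.6 ± 2.24 against 19.4 ± 0.787 FPKM (log2 fold change 0.48). Zfp36 itself rose as well, at 14.2 ± 0.632 against 10.3 ± 0.418 FPKM (log2 fold change 0.37). The genes of the Roquin proteins, which bind stem-loops in Tnf and other messages, rose too: Rc3h1 was at 5.43 ± 0.391 against 3.55 ± 0.284 FPKM and Rc3h2 at 4.08 ± 0.281 against 2.55 ± 0.264 FPKM. Mapkapk2, a kinase that acts on ZFP36 and favours TNF production, fell to 64.7 ± 3.44 against 116 ± 3.39 FPKM (log2 fold change -0.93). Frmd8, a part of the complex that brings the TNF-shedding protease to the surface, was lower by a smaller step, at 12.3 ± 0.631 against 14.1 ± 0.524 FPKM (log2 fold change -0.29).

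Of the genes of the TNF receptors Tnfrsf1b fell and Tnfrsf1a did not pass. Tnfrsf1b (ENSMUSG00000028599, chromosome 4, 145213463 to 145246870, minus strand), for TNF receptor 2, had 24.7, 22.3, 23.8, 25.1 and 24.4 FPKM in the mimic libraries, against 31.3, 30.9, 33.7, 32.1 and 29.8 FPKM in the control libraries. All 5 mimic libraries were below all 5 control libraries, and the log2 fold change was -0.48 ± 0.0413 (SE, edgeR adjusted p = 6.58e-08). Tnfrsf1a (ENSMUSG00000030341, chromosome 6, 125349362 to 125361874, plus strand), for the death-domain receptor TNF receptor 1, had 42.9, 41.3, 42.4, 44.1 and 43.6 FPKM with the mimic and 37.0, 38.2, 39.4, 39.3 and 37.9 FPKM with the control. Its FPKM did not overlap between groups, yet its log2 fold change in the count test was 0.07 (SE 0.0312) and did not pass (edgeR adjusted p = 0.071). The call rested on the scaling: with library totals in place of TMM, the trimmed mean scaling of edgeR, the log2 fold change was 0.15 and passed (edgeR adjusted p = 0.00056), and it passed with limma on FPKM as well.

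A ratio of the genes within each library does not depend on that scaling. Tnfrsf1b over Tnfrsf1a was 0.576, 0.541, 0.561, 0.569 and 0.560 in the mimic libraries, against 0.847, 0.809, 0.855, 0.817 and 0.784 in the control libraries. The mimic libraries were thus all lower, with a log2 difference of -0.55 (exact two-sided permutation p = 0.00794, the smallest that 5 against 5 allows, adjusted p = 0.0119 over the 3 ratios tested). Means were 0.561 ± 0.0132 with the mimic and 0.822 ± 0.0286 with the control (SD, n = 5 each).

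Cd40 (ENSMUSG00000017652, chromosome 2, 165055627 to 165072948, plus strand) encodes a receptor of the TNF family through which T cells activate macrophages. It had 6.13, 5.83, 4.86, 7.43 and 5.60 FPKM with the mimic, against 4.0, 4.08, 4.12, 3.96 and 3.25 FPKM with the control. The groups did not overlap, but the mimic libraries were the more spread, from replicate 3 at the low end to replicate 4 at the high end. The log2 fold change was 0.53 ± 0.101 (SE, edgeR adjusted p = 0.000298) and was 0.44 to 0.59 with any 1 library left out.

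The TNF receptor superfamily as a list held 20 tested genes of 28 listed, of which 9 rose, 6 fell and 5 did not pass. Among all tested genes 31.7% were higher and 31.5% lower. The median log2 fold change of the list was 0.30. Among genes other than the 10 with a mean of at least 1 FPKM in a group, Tnfrsf26, Tnfrsf12a and Tnfrsf23 rose most. Tnfrsf26 was at 51.9 ± 2.61 FPKM with the mimic and 22.7 ± 0.813 with the control, and Tnfrsf23, a decoy receptor for TRAIL in mice, at 20.7 ± 0.722 and 9.96 ± 0.159 FPKM. Tnfrsf23 and Tnfrsf26 are similar neighbouring genes, so their counts are uncertain. Tnfrsf12a, the receptor of the cytokine TWEAK, was at 7.35 ± 2.76 FPKM with the mimic and 3.20 ± 0.341 with the control, and its log2 fold change was 1.11, or 0.85 without mimic replicate 1. Among the same genes the falls were led by Tnfrsf14 (1.57 ± 0.313 against 2.80 ± 0.219 FPKM), Tnfrsf9 (51.6 ± 2.52 against 73.6 ± 5.23 FPKM), a costimulatory receptor, and Tnfrsf11a (3.42 ± 0.137 against 3.69 ± 0.0876 FPKM), the RANK receptor. The last of these no longer passed with library totals (log2 fold change -0.12, edgeR adjusted p = 0.0548).

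Among 10 tested ligands of the family, of 18 listed, Tnf was the only one that rose. The list held 7 that fell and 2 that did not pass, beside 31.7% higher and 31.5% lower among all tested genes, with a median log2 fold change of -1.02. The survival factor gene Tnfsf13b, for BAFF, fell to 1.09 ± 0.184 FPKM with the mimic, against 3.13 ± 0.267 with the control (log2 fold change -1.61). Tnfsf13, for the related APRIL, fell to 4.31 ± 0.629 against 10.5 ± 0.922 FPKM (log2 fold change -1.36). Ltb, for the membrane part of lymphotoxin and a neighbour of Tnf on chromosome 17, fell to 0.640 ± 0.153 against 1.26 ± 0.159 FPKM (log2 fold change -1.05). No test of the list against other genes was made.

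**Figure D2:**
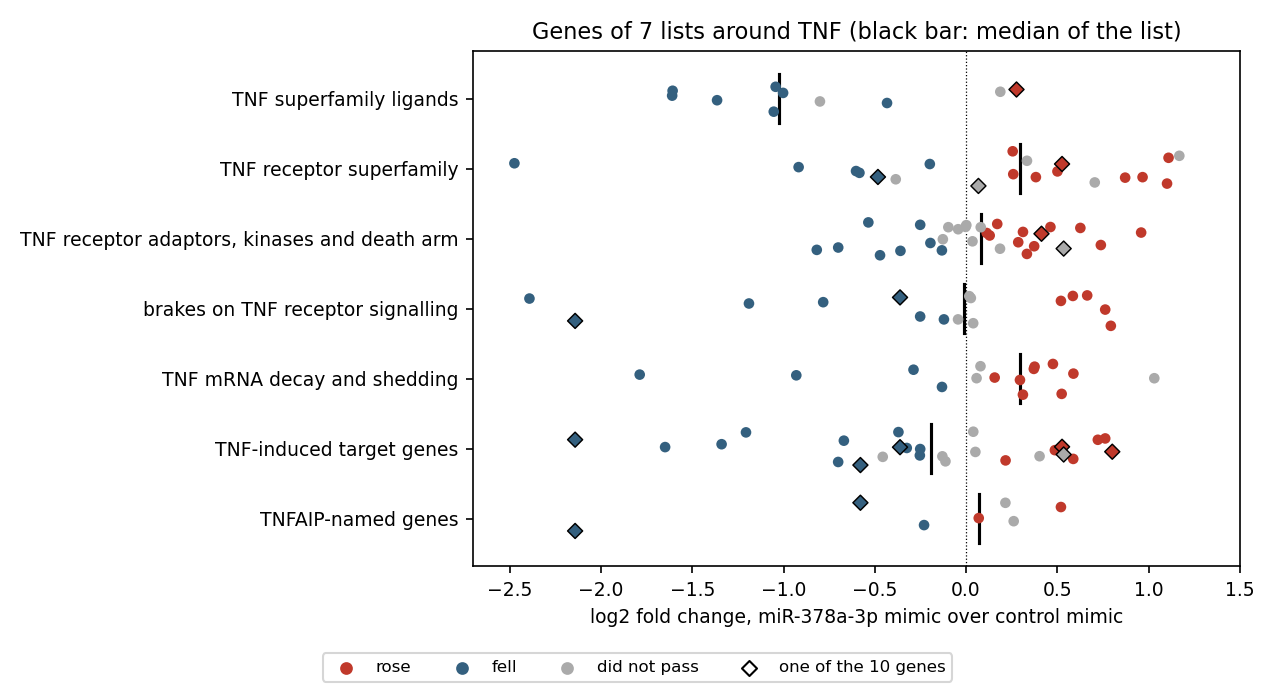
Log2 fold change, miR-378a-3p mimic over control mimic (horizontal axis), of the tested genes of 7 lists around TNF (vertical axis). Red points rose, blue points fell and grey points did not pass; diamonds are those of the 10 genes that are on a list and black bars the list medians, from -1.02 for ligands to 0.30 for receptors and for mRNA decay and shedding.

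Of the adaptor genes Traf2 rose and the scarcer Traf1 did not pass. TRAF2 carries the signal from both TNF receptors to ubiquitin ligases and kinases. Traf2 (ENSMUSG00000026942, chromosome 2, 25517982 to 25546940, minus strand) had 5.38, 5.09, 4.27, 4.57 and 4.92 FPKM with the mimic, against 3.82, 3.4, 3.32, 3.04 and 3.5 FPKM with the control. The mimic libraries were all higher, and the log2 fold change was 0.41 ± 0.0734 (SE, edgeR adjusted p = 0.000146).

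TRAF1 is an adaptor without a ligase domain that pairs with TRAF2, and its gene is itself NF-κB induced. Traf1 (ENSMUSG00000026875, chromosome 2, 34941750 to 34961597, minus strand) had 0.536, 0.355, 0.167, 0.321 and 0.300 FPKM with the mimic, against 0.225, 0.252, 0.205, 0.122 and 0.279 FPKM with the control. These values rest on 96 to 307 and 60 to 147 deposited counts, and the groups overlap because mimic replicate 3 was below all control libraries but replicate 4. The log2 fold change of 0.53 (SE 0.263) did not pass (edgeR adjusted p = 0.089). It was 0.31 without mimic replicate 1, the highest library (edgeR adjusted p = 0.283), and 0.70 without mimic replicate 3, when it passed (edgeR adjusted p = 0.0149). The ratio of Traf1 to Traf2 was 0.0680 ± 0.0218 with the mimic and 0.0629 ± 0.0154 with the control (SD, n = 5 each, exact two-sided permutation p = 0.77), so no difference of this ratio was detectable at this depth.

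Of 29 listed adaptors, kinases and death-arm genes all were tested: 12 rose, 8 fell and 9 did not pass. Among all tested genes 31.7% were higher and 31.5% lower. The median log2 fold change of the list was 0.08. Ripk3, the kinase of necroptosis, had 1.66 ± 0.363 FPKM with the mimic and 0.785 ± 0.202 with the control. Chuk, the kinase IKKα, was higher at 11.8 ± 0.653 against 6.66 ± 0.599 FPKM, and Traf3, an adaptor that holds back alternative NF-κB signalling, at 13.0 ± 0.621 against 7.89 ± 0.183 FPKM. The log2 fold changes of these 3 were 0.96, 0.74 and 0.63. Falls were led by the kinase gene Ikbke (4.55 ± 0.188 against 7.54 ± 0.189 FPKM), by Tab1 (5.89 ± 0.434 against 8.99 ± 0.729 FPKM), which activates the kinase TAK1, and by Traf5 (0.772 ± 0.108 against 1.06 ± 0.1 FPKM).

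The brakes Tnfaip3 and Tnip1 fell, by unequal amounts. Tnfaip3 (ENSMUSG00000019850, chromosome 10, 19000910 to 19015410, minus strand) encodes A20, a ubiquitin-editing enzyme that ends NF-κB signalling. It had 1.16, 0.806, 1.02, 0.940 and 1.11 FPKM in the mimic libraries, against 4.05, 4.32, 4.07, 4.53 and 3.99 FPKM in the control libraries. No mimic library came near the control range, and counts were 385 to 540 with the mimic and 1655 to 2118 with the control. The log2 fold change was -2.14 ± 0.0879 (SE, edgeR adjusted p = 1.64e-11), or 22.6% of the control level, and 2.16% of all tested genes had a log2 fold change this low or lower. The value was -1.37 with limma on log2(FPKM + 1), a scale that understates changes of low genes, and Tnfaip3 passed in all 19 alternatives.

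Tnip1 (ENSMUSG00000020400, chromosome 11, 54910785 to 54962917, minus strand) encodes ABIN-1, which binds ubiquitin chains and A20. It had 22.9, 22.4, 21.5, 21.6 and 22.2 FPKM with the mimic, against 26.9, 27.6, 26.5, 25.8 and 26.6 FPKM with the control. The mimic libraries were lower without overlap, by a narrow margin, and the log2 fold change was -0.36 ± 0.031 (SE, edgeR adjusted p = 6.54e-08).

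Set against the ligand in the same library, A20 transcripts were scarcer with the mimic. The ratio of Tnfaip3 to Tnf was 0.0759, 0.0474, 0.0593, 0.0601 and 0.0616 in the mimic libraries, against 0.331, 0.299, 0.318, 0.396 and 0.293 in the control libraries. The groups were far apart, with a log2 difference of -2.43 (exact two-sided permutation p = 0.00794, the smallest that 5 against 5 allows, adjusted p = 0.0119 over the 3 ratios).

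**Figure D3:**
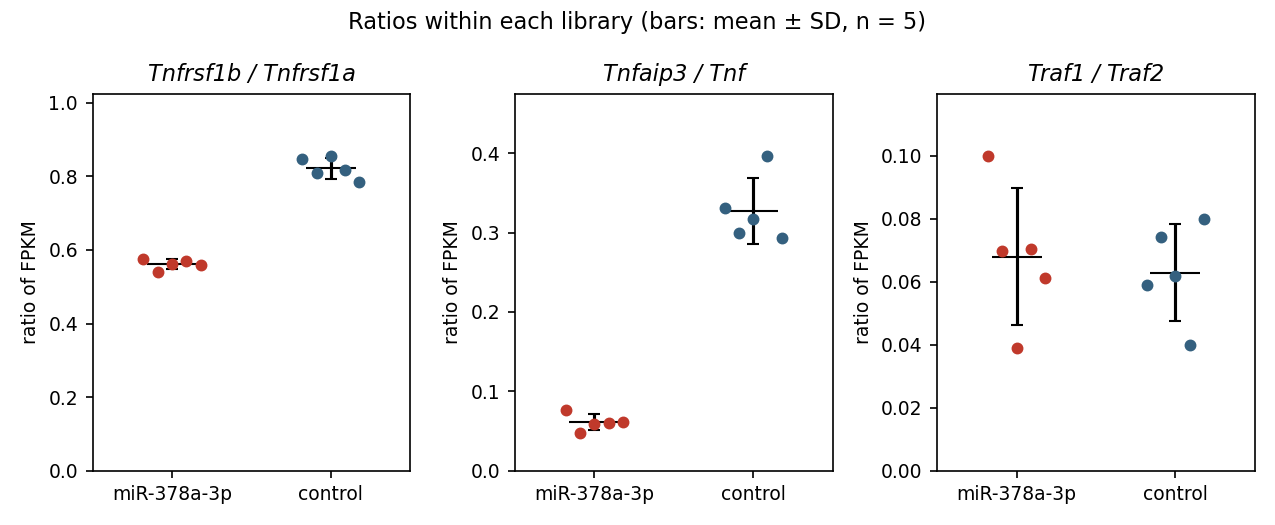
Ratio of FPKM of 2 genes in the same library (vertical axes, from 0) for Tnfrsf1b over Tnfrsf1a, Tnfaip3 over Tnf and Traf1 over Traf2, in miR-378a-3p mimic libraries (red, left) and control mimic libraries (blue, right), with mean and SD of 5. The first 2 ratios are lower in every mimic library, and Traf1 over Traf2 overlaps, at 0.0680 ± 0.0218 with the mimic and 0.0629 ± 0.0154 with the control.

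Promoters of the genes were read from RefSeq (GRCm38.p6) for 9 of the 10 genes and 10 starts, Cd40 being named only, as the 250 bases before each start. The NF-κB consensus motif, searched on both strands with overlaps allowed, was found before 2 genes, Tnfaip3 and Tnip1, and in 3.9% of all 32851 promoter windows. The windows with the motif, and that of Icam1, the gene with the largest rise among the 10, are shown with the motif in capitals.
Tnfaip3, chr10:19015411-19015660, minus strand: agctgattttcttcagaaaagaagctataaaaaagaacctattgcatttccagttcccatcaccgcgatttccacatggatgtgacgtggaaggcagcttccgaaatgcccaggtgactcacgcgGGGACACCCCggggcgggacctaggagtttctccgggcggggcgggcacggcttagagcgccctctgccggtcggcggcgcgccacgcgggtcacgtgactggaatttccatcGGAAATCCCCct
Tnip1, chr11:54962941-54963190, minus strand: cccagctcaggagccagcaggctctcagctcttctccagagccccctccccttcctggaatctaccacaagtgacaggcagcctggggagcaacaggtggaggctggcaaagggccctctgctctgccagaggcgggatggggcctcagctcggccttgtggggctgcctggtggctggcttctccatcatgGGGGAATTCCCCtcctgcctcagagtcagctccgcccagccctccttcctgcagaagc
Icam1, chr9:21015690-21015939, plus strand: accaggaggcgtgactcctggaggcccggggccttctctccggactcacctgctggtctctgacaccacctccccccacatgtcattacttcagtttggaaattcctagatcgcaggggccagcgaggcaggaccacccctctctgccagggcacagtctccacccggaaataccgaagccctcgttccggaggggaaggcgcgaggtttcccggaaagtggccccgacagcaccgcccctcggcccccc
The Tnfaip3 window held 2 matches, 125 to 116 and 12 to 3 bases before the start, and the Tnip1 run is 3 overlapping matches in 1 palindrome. A window without a match, such as that of Icam1, shows only that these letters are not in it. Near matches were not counted. Windows without a match included those of Tnfrsf1b and Tnfaip2, which fell, and of Tnf and Traf2, which rose. Another Tnfaip3 start had none either, and a link of the motif to the direction of change was not tested. The AP-1 motif TGANTCA was found before 1 gene, Tnfaip3, and in 6.75% of windows. The letters of the TATA box, TATAAA, were found before Tnf and Tnfaip3 and in 12.4% of windows. They lay 29 to 24 bases before the start in Tnf, but 225 to 220 bases before it in Tnfaip3.

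Of the 16 listed brakes on TNF receptor signalling 5 rose, 7 fell and 4 did not pass, beside 31.7% higher and 31.5% lower among all tested genes, with a median log2 fold change of -0.01. Among those with a mean of at least 1 FPKM in a group, Nfkbia, the inhibitor IκBα that NF-κB induces, rose to 24.6 ± 1.33 FPKM with the mimic, against 13.6 ± 0.994 with the control (log2 fold change 0.76). Nfkbie, a related inhibitor, rose to 3.52 ± 0.4 against 1.9 ± 0.147 FPKM. Otud7b, another deubiquitinase of the A20 type, rose to 18.4 ± 0.447 against 10.9 ± 0.456 FPKM. On the falling side were Usp18 (6.11 ± 0.599 against 13.1 ± 0.611 FPKM), a protease known mainly for restraining interferon signalling, Tnip2 (8.48 ± 0.903 against 13.7 ± 0.0257 FPKM), a relative of Tnip1, and Nfkbib (12.4 ± 0.494 against 13.9 ± 0.972 FPKM).

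The TNF-induced genes Icam1 and Tnfaip2 changed in opposite directions. Icam1 (ENSMUSG00000037405, chromosome 9, 21015985 to 21028817, plus strand) encodes the adhesion molecule that binds leukocyte integrins. It had 28.2, 26.6, 26.2, 28 and 26.8 FPKM with the mimic, against 14.9, 14.8, 14.8, 14.2 and 14.5 FPKM with the control. The lowest mimic library was well above the highest control library, and the log2 fold change was 0.80 ± 0.0312 (SE, edgeR adjusted p = 9.26e-12). Of all tested genes 8.53% had a log2 fold change this high or higher. An antisense gene model overlapping the end of Icam1, Gm47079, was at 0.268 FPKM with the mimic and 0.152 FPKM with the control.

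Tnfaip2 (ENSMUSG00000021281, chromosome 12, 111442469 to 111455018, plus strand), a TNF-induced gene whose protein shapes membrane protrusions, had 67.2, 62.4, 65.7, 65.3 and 66.1 FPKM with the mimic, against 89.2, 92.3, 92.0, 90.5 and 94.5 FPKM with the control. It was the most abundant of the 10 transcripts per length in both groups, and its mimic libraries were all lower. The log2 fold change was -0.58 ± 0.0273 (SE, edgeR adjusted p = 7.4e-11). The overlapping antisense model Gm40578 was at 0.475 FPKM with the mimic and 0.399 FPKM with the control. Antisense models within Tnip1 and Traf2 were no higher than 0.116 FPKM in either group. Without strand in the counting, reads of such pairs cannot be told apart.

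**Figure D4:**
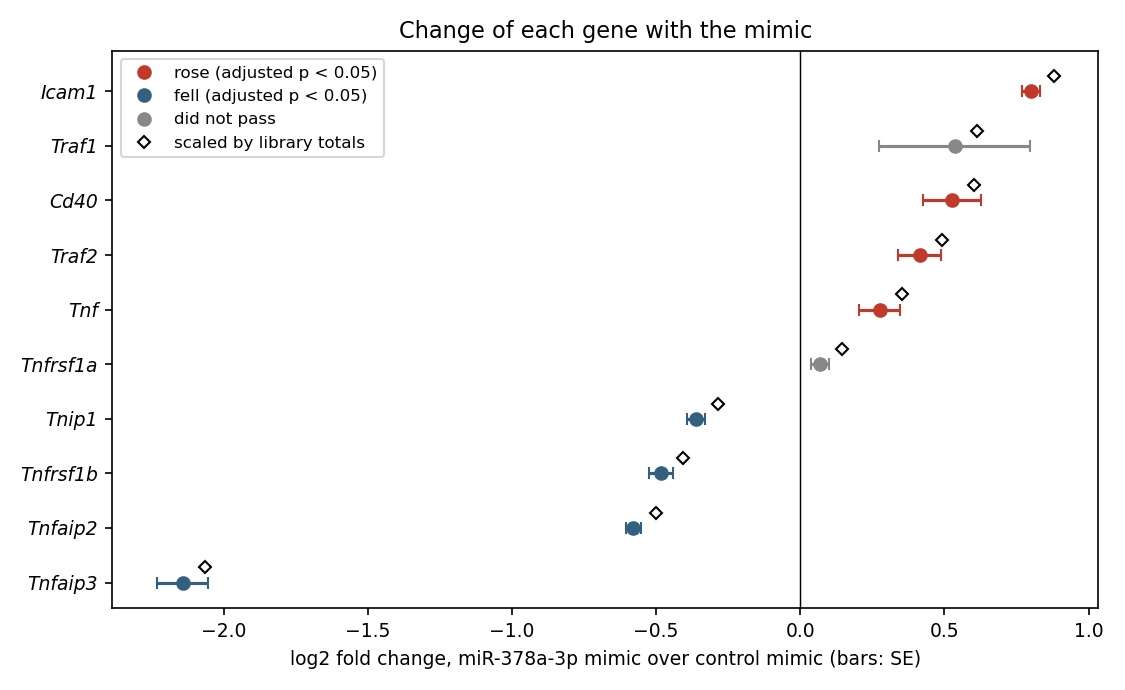
Log2 fold change, miR-378a-3p mimic over control mimic (horizontal axis), of the 10 genes in the edgeR fit with its SE (circles; red rose, blue fell, grey did not pass), with the value under scaling by library totals above it (open diamonds). All diamonds lie slightly to the right of their circles, and only Tnfrsf1a, at 0.07 and 0.15, changes its call.

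Among 30 listed TNF-induced targets 26 were tested, and 7 rose, 12 fell and 7 did not pass, with a median log2 fold change of -0.19. Beside this and the next list stand 31.7% higher and 31.5% lower among all tested genes. Besides Nfkbia, the rises outside the 10 were led by the chemokine genes Cxcl10 (2.04 ± 0.264 against 1.16 ± 0.227 FPKM) and Ccl5 (5.02 ± 0.987 against 3.13 ± 0.532 FPKM). The growth factor gene Csf1 fell to 4.63 ± 0.633 FPKM with the mimic, against 13.7 ± 0.469 with the control (log2 fold change -1.65). Ebi3, a cytokine subunit, fell to 8.38 ± 0.982 against 19.9 ± 2.09 FPKM, and Ptgs2, for cyclooxygenase 2, to 4.52 ± 0.491 against 9.81 ± 0.509 FPKM. In the 8 genes named TNFAIP or TNFAIP8-like, 7 were tested, 2 rose, 3 fell and 2 did not pass (median log2 fold change 0.07). Tnfaip8l2, for the immune regulator TIPE2, rose to 137 ± 7.45 against 89.7 ± 5.54 FPKM (log2 fold change 0.52). The other rise was Tnfaip1 (log2 fold change 0.07, edgeR adjusted p = 0.0371), which no longer passed without mimic replicate 2 or 5 or without control replicate 1, 2, 3 or 5 (edgeR adjusted p up to 0.232), and Tnfaip8 fell by 0.23 on the log2 scale. Over all 7 lists, 104 genes other than the 10 were tested, and 37 rose, 38 fell and 29 did not pass, shares near the 31.7% higher and 31.5% lower among all tested genes.

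The order of the levels per length also differed between groups. With the mimic it ran Tnfaip2 (65.3 ± 1.76 FPKM), Tnfrsf1a (42.8 ± 1.07), Icam1 (27.2 ± 0.904), Tnfrsf1b (24.1 ± 1.08), Tnip1 (22.1 ± 0.591), Tnf (16.6 ± 1.15), Cd40 (5.97 ± 0.941), Traf2 (4.84 ± 0.433), Tnfaip3 (1.01 ± 0.14) and Traf1 (0.336 ± 0.133), where the ranges of Tnfrsf1b and Tnip1 and of Cd40 and Traf2 overlapped. With the control it ran Tnfaip2 (91.7 ± 1.97 FPKM), Tnfrsf1a (38.4 ± 1.01), Tnfrsf1b (31.6 ± 1.45), Tnip1 (26.7 ± 0.657), Icam1 (14.6 ± 0.287), Tnf (12.9 ± 1.17), Tnfaip3 (4.19 ± 0.226), Cd40 (3.88 ± 0.358), Traf2 (3.42 ± 0.282) and Traf1 (0.216 ± 0.0598). There the neighbours Icam1 and Tnf, Tnfaip3 and Cd40, and Cd40 and Traf2 overlapped. Icam1 thus stood above Tnfrsf1b and Tnip1 with the mimic and below them with the control, while Tnfaip3 fell beneath Cd40 and Traf2.

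The genes whose profile over the 10 libraries was nearest to Tnf were sought by the root mean square difference of centred log2(FPKM + 1), among 11521 other genes. For Tnf they were Fam118a, Taf4 and Capn15, at 0.0547 to 0.0603, against a median of 0.213 over all genes. Dpep2, a dipeptidase gene, Lilr4b, a leukocyte immunoglobulin-like receptor gene with close paralogs, and Echdc3 were nearest to Tnfaip3, at 0.042 to 0.051. For Icam1 they were the superoxide dismutase gene Sod1, the phospholipase gene Pla2g5 and Extl3, at 0.0378 to 0.0385. Sod1 was at 52.5 ± 1.68 FPKM with the mimic and 28.5 ± 1.14 with the control, and Dpep2 at 3.16 ± 0.246 and 9.59 ± 0.428 FPKM. With 2 groups this measure mainly finds genes with a similar step between them on the log2(FPKM + 1) scale, which understates changes of low genes. On that scale the step of Tnfaip3 was -1.37 (limma). In the edgeR fit Dpep2, Lilr4b and Echdc3 had log2 fold changes of -1.69, -1.43 and -1.51, against -2.14 for Tnfaip3.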

How the data were processed

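Poly(A) RNA was made into strand-marked paired-end libraries, per the labels' protocols. For each gene in each library the authors deposited an expected (estimated) count beside an FPKM value, as headed in the file. The submitters' processing notes name cutadapt 1.9, HISAT2 2.2.1, StringTie 2.1.6, DESeq2, edgeR and the build GRCm39, without roles; whether counting used strand is not given in the sources used here. Coordinates are as deposited: of 28163 genes shared with GENCODE M21, a GRCm38 annotation, 87.8% had identical positions, and 7 of the 10 genes described did, so they are given as GRCm38. The expected counts were whole and were used as deposited; low values pile up at 4 (933.5 genes per library on average, against 485.6 at 3). The detection floor was set at 3 read pairs (12 counts; 0.184 to 0.246 CPM) and covers counting error only. All 20 value columns matched a library.

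The main test was edgeR 4.0.16 (R 4.3.3): filterByExpr, TMM, glmQLFit and glmQLFTest without covariates, with Benjamini-Hochberg adjustment over 15916 genes and a threshold of 0.05. The SE is the log2 fold change divided by the square root of F. Levels are means ± SD of FPKM over 5 libraries. Ratios of FPKM within a library were compared by exact permutation (scipy 1.17.1). Scripts were tested on simulated data. No pair of libraries agreed within sampling noise (lowest chi-square 2.66 per degree of freedom). The members and lists were chosen with earlier results of these data known. Named from each list, besides the 10 genes, are up to 3 rises and 3 falls with the largest log2 fold changes among genes that passed with a mean of at least 1 FPKM in the higher group, and the 3 nearest genes of Tnf, Tnfaip3 and Icam1. Zfp36 was added after its values were seen, and its values were not recomputed under the alternatives. Alternatives were DESeq2 1.42.0 and its size factors, library totals, limma 3.58.1 on log2(FPKM + 1) and log2(FPKM + 0.1), other filters, counts divided by 4, each library left out, and a replicate block.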

Additional observations from a re-analysis of the deposited data

Results flagged for a closer look

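Among 90 groups of 5 libraries (the 10 genes and 35 named list genes, each with the mimic and the control), 8 held a library whose FPKM lay far from the other 4, where chance flags about 1 in 20. Of the 10 genes 1 was affected: Cd40 in control mimic replicate 5 was at 3.25 FPKM, against 3.96 to 4.12 FPKM in the other control libraries, and without it the log2 fold change was 0.45. Tnfrsf12a in mimic replicate 1 was at 12.3 FPKM, against 5.88 to 6.58 FPKM in the other mimic libraries; this library also held the epithelial markers, whose part in the value was not tested. Chuk in mimic replicate 3 was at 10.7 FPKM (others 12 to 12.3), Traf5 in mimic replicate 2 at 0.583 (others 0.783 to 0.840) and Ptgs2 in mimic replicate 4 at 3.66 (others 4.63 to 4.84). Among control libraries, Tnfrsf14 in replicate 3 was at 3.18 FPKM (others 2.65 to 2.76), Tnfrsf9 in replicate 5 at 64.3 (others 75.0 to 76.8) and Nfkbib in replicate 4 at 12.2 (others 14.1 to 14.7).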

How the results depend on the processing

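The 8 calls among the 10 genes kept direction and call in all 19 alternatives; 183 of 187 gene values did not change their call and 0 reversed. Tnfrsf1a passed with library totals (0.15) and with limma on log2(FPKM + 1) (0.15) and log2(FPKM + 0.1) (0.16), in fits where the median over all genes was 0.0751, 0.0921 and 0.107, against -0.0021. Traf1 could not be fitted where a mean FPKM of at least 1 was required, and ran from 0.31 to 0.70 with a library left out. Genes lower with the mimic numbered 3258 and 3253 with limma on 11570 genes, against 5006 in the main test. Of the changed genes 62.1% were then higher, against 50.2%. With edgeR on those 11570 genes 4210 were lower, and 50.1% of the changed genes were higher. With library totals 58.4% were higher. What sets these fits apart was not tested. Of the TNF receptor superfamily list 3 genes fell with limma at either pseudocount, against 6 in the main test. The limma fits left out Fas and Tnfrsf8, which lay under a mean of 1 FPKM, and Tnfrsf11a no longer passed. Of the TNFAIP-named genes 1 rose without a low-count filter, with the FPKM filter and with the replicate block, and 1 to 2 with a library left out. In each setting with 1 rise, Tnfaip1 no longer passed. Deviations of same-numbered libraries correlated across genes at 0.000773 to 0.16, and 1 of 10 libraries was closest to its own number, so the numbers were not taken as pairs. With the replicate block the differences of -0.55 (Tnfrsf1b over Tnfrsf1a) and -2.43 (Tnfaip3 over Tnf) had an exact sign-flip p of 0.0625, the smallest 5 pairs allow, and no other call on the 10 genes changed. Traf1 over Traf2 turned negative with log2(FPKM + 0.1) (-0.0605), and without mimic replicate 1 or control replicate 4, in place of 0.0884, and ran from -0.0659 to 0.273 with a library left out. Traf1 has the fewest counts of the 10 genes.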

Other observations

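Ligands and receptors of the wider TNF family, chosen after their values were seen and not recomputed under the alternatives, moved in different combinations. Tnfsf12, for TWEAK, fell to 4.80 ± 0.201 FPKM with the mimic, against 9.03 ± 0.672 with the control (edgeR adjusted p = 1.15e-08), while its receptor gene Tnfrsf12a rose. The BAFF and APRIL genes fell while Tnfrsf13b, for their receptor TACI, rose to 14.9 ± 0.76 against 11.7 ± 0.512 FPKM (edgeR adjusted p = 0.00019). Tnfsf14, for LIGHT, fell to 1.40 ± 0.258 against 2.72 ± 0.386 FPKM (edgeR adjusted p = 1.54e-05); of its receptors Ltbr rose, at 18.5 ± 0.516 against 12.3 ± 1.04 FPKM, and Tnfrsf14 fell. Tnfsf9 fell together with its receptor gene Tnfrsf9, to 27.7 ± 1.23 against 35.2 ± 2.04 FPKM (edgeR adjusted p = 2.1e-06). Below 1 FPKM, Tnip3, a relative of Tnip1, fell to 0.129 ± 0.0194 against 0.653 ± 0.0368 FPKM (edgeR adjusted p = 1.11e-10), and Tnfrsf8, for the receptor CD30, to 0.116 ± 0.0327 against 0.614 ± 0.11 FPKM (edgeR adjusted p = 1.54e-07).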
